A study of Mus musculus with 17 samples.

Results

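The genes described here encode 10 transcription factors of the AP-1, EGR and C/EBP groups, measured in the lungs of mice after endotoxin (lipopolysaccharide, LPS) or saline. They were chosen by name, as every probe set of the array whose gene symbol is Fos, Jun, Junb, Fosl2, Atf3, Egr1, Cebpa, Cebpb, Cebpd or Cebpg. These symbols matched 15 of 22626 probe sets, or 10 of 12393 named genes. There were 5 AP-1 genes (Fos, Jun, Junb, Fosl2 and the ATF-family gene Atf3), 1 EGR gene (Egr1) and 4 C/EBP genes.

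AP-1 is a dimer of a Jun protein with a Fos, Jun or ATF protein that binds a short palindromic DNA element. Many of its genes, and Egr1, are immediate-early genes, which cells transcribe within minutes of a stimulus from factors already present, and whose RNA is usually lost again quickly. Atf3 is induced by stress and by Toll-like receptor signals, and is known as a repressor of inflammatory cytokine genes in macrophages. The C/EBP proteins bind as dimers through a leucine zipper: C/EBPα maintains differentiated alveolar epithelial and myeloid cells, C/EBPβ and C/EBPδ are acute-phase factors that rise in inflammation, and C/EBPγ lacks a transactivation domain and forms dimers with its relatives and with ATF4.

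The lungs of 17 male mice were each hybridised to 1 Affymetrix MOE430A array. Wild-type C57BL/6J mice were studied 22 h after saline (n = 4) and 7 h (n = 3) or 22 h (n = 3) after LPS, and NOS2-/- mice, which lack the inducible nitric oxide synthase in every cell, 22 h after saline (n = 1) and 7 h (n = 3) or 22 h (n = 3) after LPS. LPS from Escherichia coli was given intravenously at 20 mg/kg in saline, and control mice received the saline alone. The sources used here do not give the age of the mice. All values are on the log2 scale that the authors deposited, so that a difference of 1 is a 2-fold change, and a level of one probe set cannot be set against that of another. A change was called where the limma p, adjusted by Benjamini-Hochberg for the 22626 probe sets, was under 0.05.

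The arrays differed in ways that touch the results. Saline was sampled at 22 h only, so each comparison of LPS at 7 h with saline also holds the difference in time. For the NOS2-/- response there was 1 control mouse, whose spread was taken to equal that of the other groups. That mouse stood apart in markers of other tissues: the mean over 6 skeletal muscle genes was 10.73 in it and 6.83 to 7.94 in all the other mice, and that over 6 genes of squamous epithelium was 10.04 against 7.69 to 8.17. Replicate 2 of the wild-type LPS 22 h group correlated with its group at 0.949 to 0.955 over all probe sets, while the other two correlated with each other at 0.996. Neutrophil markers (9 of 10 listed genes measured) averaged 9.15 to 9.57 after saline and 11.21 to 11.91 after LPS. Endothelial markers (7 of 7 measured) averaged 11.56 to 11.67 after saline and 10.20 to 10.71 after LPS. Those of alveolar type 2 cells, which identify lung tissue (6 of 7 measured), averaged 12.99 to 13.80 over all the mice. In whole lung, fewer cells of a type and less RNA per cell cannot be told apart, and the part of cell composition in the results was not tested. The only Nos2 probe set averaged 8.49 in wild-type and 9.15 in NOS2-/- mice 22 h after LPS. At 7 h it averaged 8.94 in NOS2-/- mice and ranged from 8.93 to 9.06 in wild-type mice. The sources used here do not say whether it lies in the deleted part of the gene, so its level does not check the genotype labels.

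Of the 10 genes, 8 had an entry in the RefSeq promoter table (GRCm38.p6). Egr1 and Cebpd had none. The 150 bases before the start of 5 of them are shown because Junb, Atf3 and Cebpb rose together after LPS, Cebpa fell, and Cebpg separated the genotypes. Capitals mark matches on either strand to motifs that AP-1, CREB/ATF, C/EBP and EGR proteins are known to bind. The motifs searched were TGACTCA (AP-1), TGACGTCA (CREB/ATF) with its half-site TGACG, the looser TNACNTCA, TTGCNNAA (C/EBP) and GCGGGGGCG (EGR). The half-site lies within the full CREB/ATF motif, and the looser motif covers the full one and was added after the sequences had been read.
Junb (chr8:84978749-84978898, minus strand): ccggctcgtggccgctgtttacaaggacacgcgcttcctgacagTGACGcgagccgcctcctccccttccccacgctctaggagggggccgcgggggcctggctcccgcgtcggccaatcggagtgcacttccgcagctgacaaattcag
Atf3 (chr1:191183334-191183483, minus strand): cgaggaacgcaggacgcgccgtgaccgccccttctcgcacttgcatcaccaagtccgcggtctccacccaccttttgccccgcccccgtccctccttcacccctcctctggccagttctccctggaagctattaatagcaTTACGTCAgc
Cebpb (chr2:167688765-167688914, plus strand): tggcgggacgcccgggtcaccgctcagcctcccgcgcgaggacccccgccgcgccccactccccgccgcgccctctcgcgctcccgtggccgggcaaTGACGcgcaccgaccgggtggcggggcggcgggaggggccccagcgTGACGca
Cebpa (chr7:35119143-35119292, plus strand): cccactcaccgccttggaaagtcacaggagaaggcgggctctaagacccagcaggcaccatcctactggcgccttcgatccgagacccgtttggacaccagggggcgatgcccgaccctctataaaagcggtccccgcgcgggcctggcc
Cebpg (chr7:35056567-35056716, minus strand): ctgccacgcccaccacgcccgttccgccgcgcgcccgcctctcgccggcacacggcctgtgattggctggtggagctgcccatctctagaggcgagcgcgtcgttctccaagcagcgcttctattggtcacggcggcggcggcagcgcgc

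The Atf3 window held TTACGTCA, from 10 to 3 bases before the start, which matches TNACNTCA, and the half-site within it. The half-site stood once in the Junb window, 106 to 102 bases before the start, and at a pair of places in the Cebpb window. The Cebpa and Cebpg windows held none of the motifs. Of the members not printed, Fos held the half-site at a pair of places, Jun held TGACATCA and Fosl2 held the EGR motif. Among all 32851 promoter windows of this length, 13.3% held the half-site, 9.87% TNACNTCA, 1.36% TGACGTCA, 2.84% TGACTCA, 5.46% TTGCNNAA and 2.09% GCGGGGGCG. A match describes the letters of the window and not a bound site.

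LPS raised Junb, Atf3, Cebpb and Cebpd and lowered Cebpa in both genotypes and at both times. In wild-type mice, 6 of the 10 genes were called at 7 h, 5 higher and 1 lower, where 32.3% of all probe sets were called. At 22 h, 6 of 10 were called, again 5 higher and 1 lower, against 32.8%. In NOS2-/- mice, 5 of 10 were called at 7 h, 4 higher and 1 lower, against 22.5% of all probe sets, and 8 of 10 at 22 h, 6 higher and 2 lower, against 27.6%. The median log2 fold change of the 10 genes in these 4 comparisons was 0.61, 0.45, 0.52 and 0.99, and that of all probe sets was -0.05, -0.00, 0.04 and 0.03. The 7 h and 22 h comparisons of a genotype share their saline mice.

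**Figure D1:**
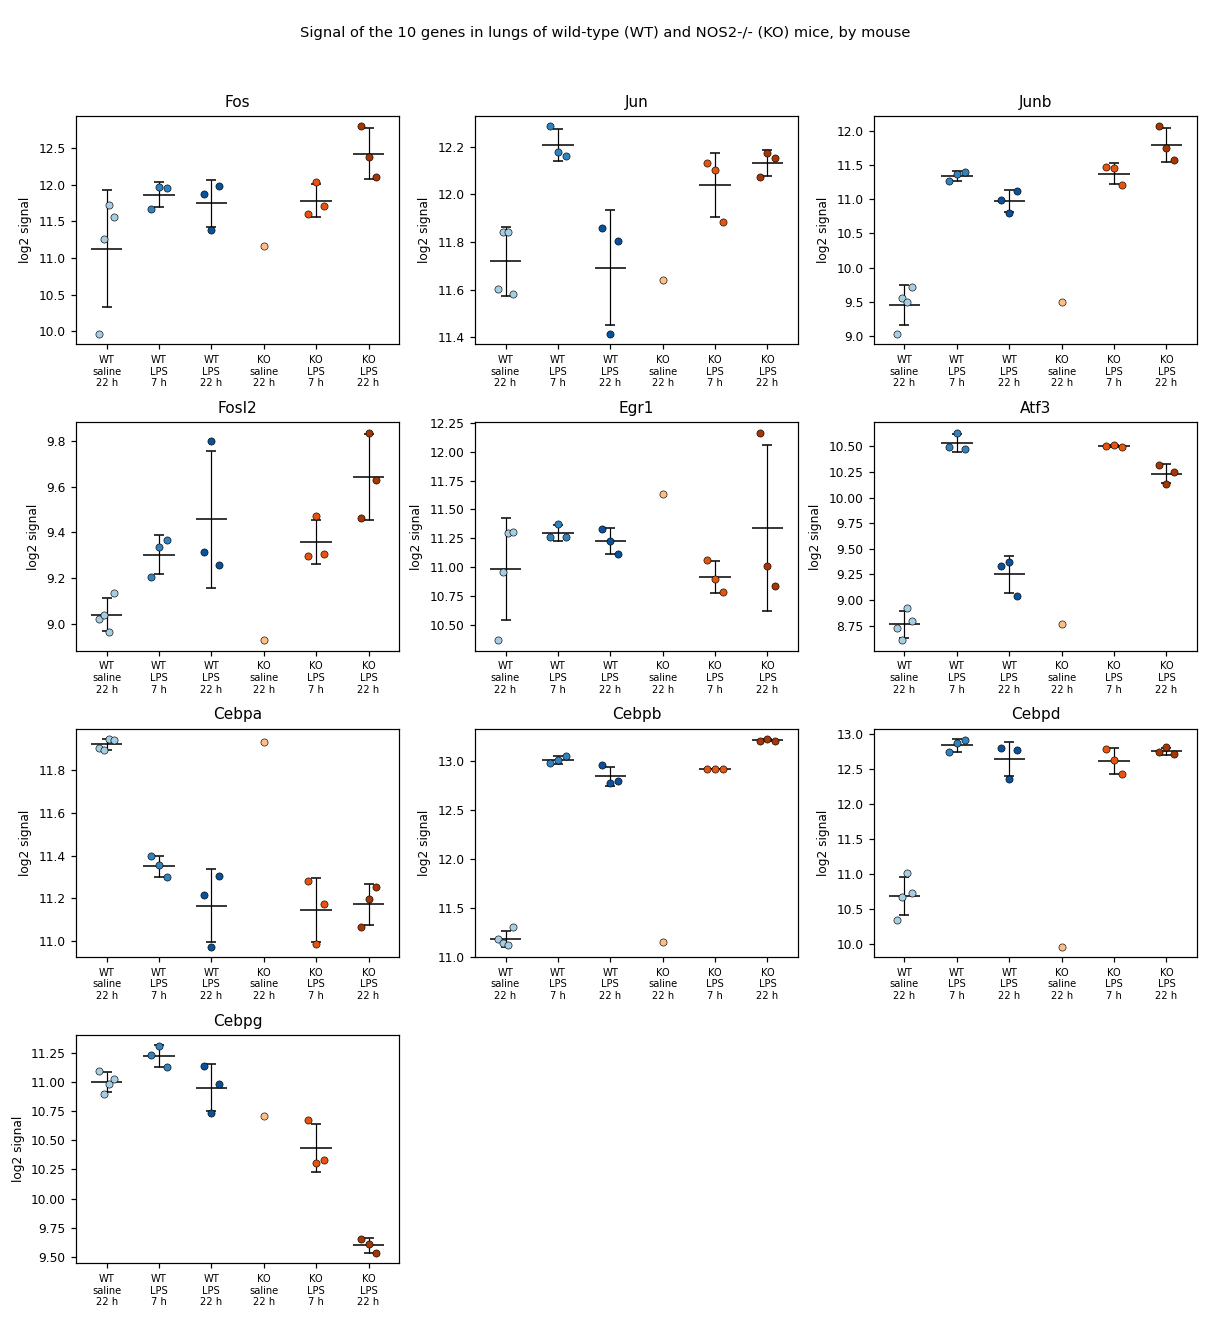
Signal of each of the 10 genes in every mouse, at the probe set with the highest mean. The y axes are log2 signal, each with its own range that does not start at 0, points are mice, and lines and bars are the mean ± SD of groups with 3 or 4 mice. WT is wild-type and KO is NOS2-/-. Junb, Atf3, Cebpb and Cebpd were above and Cebpa below every saline mouse in each LPS group, and Cebpg was lowest in NOS2-/- mice 22 h after LPS.

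Junb, which encodes an AP-1 subunit and partner of the Fos proteins, had signals of 9.03, 9.55, 9.49 and 9.72 in the wild-type saline mice. It reached 11.26, 11.37 and 11.40 at 7 h and 10.99, 10.80 and 11.11 at 22 h after LPS. The saline and LPS mice did not overlap. Junb rose 3.72-fold at 7 h (log2 fold change 1.89 ± 0.15 SE, limma adjusted p = 6.98e-08) and 2.87-fold at 22 h (1.52 ± 0.15, adjusted p = 8.36e-07). The NOS2-/- saline mouse had 9.49, within the range of the wild-type saline mice, and NOS2-/- mice had 11.46, 11.46 and 11.20 at 7 h and 12.06, 11.74 and 11.57 at 22 h after LPS. Their rise was 3.69-fold at 7 h and 4.93-fold at 22 h.

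Atf3 signals were 8.73, 8.61, 8.92 and 8.80 in wild-type saline mice and 10.49, 10.63 and 10.48 at 7 h after LPS. At 22 h they were 9.34, 9.37 and 9.04, between both of the other groups and overlapping neither. The rise over saline was 3.41-fold at 7 h (1.77 ± 0.09, adjusted p = 5.36e-10) and 1.40-fold at 22 h (0.49 ± 0.09, adjusted p = 0.000526). In NOS2-/- mice Atf3 was 8.76 after saline, 10.51, 10.52 and 10.50 at 7 h, and 10.32, 10.13 and 10.25 at 22 h. All 3 NOS2-/- mice at 22 h lay above the wild-type mice at 22 h and below the 7 h mice of both genotypes, and their rise over saline was 2.77-fold.

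Jun, the founding AP-1 subunit, was called at 7 h in wild-type mice and at 22 h in NOS2-/- mice. Its signals were 11.60, 11.84, 11.84 and 11.58 after saline, 12.29, 12.18 and 12.16 at 7 h and 11.86, 11.41 and 11.81 at 22 h. The 7 h mice stood above both other groups, which overlapped. Jun rose 1.40-fold at 7 h (0.49 ± 0.11, adjusted p = 0.00201) and was not called at 22 h (-0.03 ± 0.11, adjusted p = 0.877). In NOS2-/- mice it was 11.64 after saline, 12.13, 12.10 and 11.88 at 7 h and 12.07, 12.17 and 12.15 at 22 h. The NOS2-/- rise passed the test at 22 h (0.49 ± 0.16, adjusted p = 0.0322) and not at 7 h (0.40 ± 0.16, adjusted p = 0.0935, or 0.0126 without wild-type LPS 22 h replicate 2). The call at 22 h was lost without replicate 2 (0.47, adjusted p = 0.0708) or replicate 3 (0.48, adjusted p = 0.066) of the NOS2-/- LPS 22 h group. A second Jun probe set averaged 10.93 after saline, 11.20 at 7 h and 10.70 at 22 h after LPS in wild-type mice. It was 10.79 in the NOS2-/- saline mouse and averaged 11.22 at 7 h and 11.14 at 22 h in NOS2-/- mice.

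Fos and Egr1, the best known immediate-early genes of the set, passed the test in none of these 4 comparisons. Fos was 9.96, 11.26, 11.73 and 11.56 in wild-type saline mice, and its lowest value set most of the spread of that group (11.13 ± 0.80 SD, n = 4). After LPS, wild-type mice had 11.67, 11.97 and 11.96 at 7 h and 11.87, 11.38 and 11.99 at 22 h, which overlapped the saline mice. The wild-type change at 7 h (0.74, adjusted p = 0.096) passed the test without saline replicate 3 (0.94, adjusted p = 0.041) and without replicate 2 of the LPS 22 h group (0.74, adjusted p = 0.0462). NOS2-/- mice had 11.17 after saline, 11.60, 12.04 and 11.71 at 7 h, and 12.80, 12.38 and 12.11 at 22 h, where the 95% interval of the rise was 0.22 to 2.29 (adjusted p = 0.0681). That rise, with the same value of 1.26, was called without wild-type saline replicate 1 (adjusted p = 0.00354) or wild-type LPS 22 h replicate 2 (adjusted p = 0.0292), whose spread enters every test. Against the 4 wild-type saline mice the same NOS2-/- mice were called higher (1.30, adjusted p = 0.0039).

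Egr1, a zinc finger factor, was 10.36, 10.96, 11.30 and 11.30 in wild-type saline mice, 11.26, 11.38 and 11.26 at 7 h and 11.33, 11.23 and 11.11 at 22 h after LPS. The NOS2-/- saline mouse had 11.63, and NOS2-/- mice had 11.06, 10.89 and 10.79 at 7 h and 12.17, 11.01 and 10.84 at 22 h. One NOS2-/- mouse at 22 h therefore stood more than 1 log2 unit above the other two. The interval of the wild-type change was -0.25 to 0.88 at 7 h and -0.32 to 0.81 at 22 h, and that of the NOS2-/- change was -1.57 to 0.13 and -1.15 to 0.56.

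Fosl2, which encodes the Fos protein FRA2, was 9.02, 9.04, 8.96 and 9.14 in wild-type saline mice, 9.20, 9.33 and 9.37 at 7 h and 9.31, 9.80 and 9.26 at 22 h after LPS. Both LPS groups lay above the saline mice. The change was called at 22 h (0.42 ± 0.12, adjusted p = 0.0123) and not at 7 h (0.26 ± 0.12, adjusted p = 0.111). The highest value at 22 h was that of replicate 2, the array that stood apart, and without it the change at 22 h was 0.25 and was still called, and that at 7 h was called as well (adjusted p = 0.0113). In NOS2-/- mice Fosl2 was 8.93 after saline, 9.30, 9.47 and 9.31 at 7 h and 9.46, 9.84 and 9.63 at 22 h, a called rise of 0.72 ± 0.18 (adjusted p = 0.00691) at 22 h. The NOS2-/- change at 7 h was 0.43 (adjusted p = 0.104, or 0.00894 without that array).

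**Figure D2:**
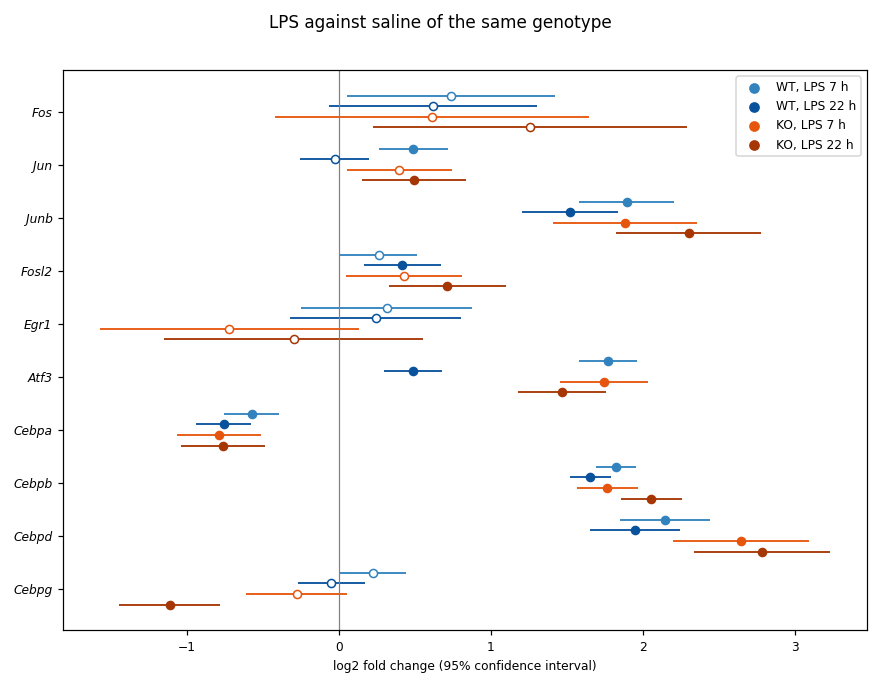
Change of the 10 genes with LPS in wild-type (WT) and NOS2-/- (KO) mice. The x axis is the log2 fold change against saline mice of the same genotype, points are estimates of the limma fit over 17 arrays, bars are 95% confidence intervals, and filled points passed an adjusted p of 0.05. Junb, Cebpb and Cebpd rose by 1.52 to 2.79 in all comparisons, Atf3 by 0.49 in wild-type mice at 22 h and by 1.47 to 1.77 in the others, and the intervals of Fos and Egr1 are the widest.

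Cebpb, the C/EBP factor of the acute-phase response, was 11.18, 11.14, 11.12 and 11.30 in wild-type saline mice. It reached 12.97, 13.01 and 13.05 at 7 h and 12.96, 12.78 and 12.79 at 22 h after LPS. The rise was 3.54-fold at 7 h (1.82 ± 0.06, adjusted p = 9.08e-12) and 3.15-fold at 22 h (1.66 ± 0.06, adjusted p = 2.98e-11). NOS2-/- mice had 11.15 after saline, 12.92 in each of 3 mice at 7 h, and 13.20, 13.22 and 13.21 at 22 h. A second Cebpb probe set gave 4.83-fold and 3.67-fold rises in wild-type mice and correlated with the first at r = 0.99 over the 17 arrays.

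Cebpd, another acute-phase factor, was 10.35, 10.67, 11.01 and 10.73 in wild-type saline mice, 12.74, 12.86 and 12.91 at 7 h and 12.79, 12.36 and 12.76 at 22 h after LPS. Its rises of 4.42-fold and 3.85-fold (2.15 ± 0.14 and 1.95 ± 0.14) were the largest at either time in wild-type mice among the probe sets that represent the 10 genes. NOS2-/- mice had 9.97 after saline, below every wild-type saline mouse, then 12.78, 12.63 and 12.42 at 7 h and 12.73, 12.81 and 12.71 at 22 h. Their rises of 2.65 ± 0.21 and 2.79 ± 0.21 fell to 1.92 and 2.06 when the wild-type saline mice served as controls. A second Cebpd probe set with a lower mean signal had wild-type changes of 0.22 and 0.16 at these times, neither called, and rose by 0.49 at both times in NOS2-/- mice.

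Cebpa was the member that fell in both genotypes and at both times. Its signals in wild-type saline mice lay close together, at 11.91, 11.90, 11.95 and 11.94, and the NOS2-/- saline mouse had 11.93. After LPS, wild-type mice had 11.40, 11.35 and 11.30 at 7 h and 11.22, 10.97 and 11.30 at 22 h, and NOS2-/- mice 11.28, 10.99 and 11.17 and then 11.07, 11.20 and 11.25. Every LPS mouse was below every saline mouse. The log2 fold changes of Cebpa were -0.57 (limma adjusted p = 7.31e-05) and -0.76 (4.19e-06) in wild-type mice, and -0.79 (0.000323) and -0.76 (0.000347) in NOS2-/- mice. Markers of alveolar type 2 cells, where Cebpa is expressed, were also lower, with means of 13.75 to 13.80 over the saline mice and 12.99 to 13.49 over the LPS mice. Markers of myeloid cells, which C/EBPα also maintains, were higher. Neutrophil means were 9.15 to 9.57 over the saline mice and 11.21 to 11.91 over the LPS mice. Monocyte and macrophage means were 9.86 to 10.03 and 10.54 to 11.18. The part of these cell types in the fall of Cebpa was not tested.

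The genotypes were next compared after LPS. At 7 h, 1 of the 10 genes was called, where 2.01% of all probe sets were called. That gene was Cebpg, which was lower in NOS2-/- mice. At 22 h, 5 of the 10 were called, 4 higher and 1 lower in NOS2-/- mice, against 16.4% of all probe sets. Atf3, Junb, Jun and Cebpb were higher and Cebpg was lower. The shares of all probe sets depended on single arrays. At 7 h the share was 26.9% without wild-type LPS 22 h replicate 2 and 25.5% with the compared groups fitted alone, with 2 members called in each case, and 0.102% to 0.278% without any 1 of the wild-type LPS 7 h mice, with 1 member called, so the member count is not read against it. At 22 h, leaving out wild-type LPS 22 h replicate 2 gave a share of 26.6% and turned the split of all probe sets from 2180 higher and 1540 lower in NOS2-/- mice to 2535 higher and 3485 lower. It was 4.06% with the groups fitted alone and 10.3% to 10.9% without any 1 of the NOS2-/- LPS 22 h mice. The members called were 6, 3 and 4 or 5 in these fits.

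Markers of several cell types also differed between the genotypes at 22 h. Of 9 monocyte and macrophage markers 5 were lower in NOS2-/- mice (median -0.36), with means of 10.72 to 10.74 over the mice against 10.73 to 11.18 in wild-type mice. Of 5 smooth muscle markers 4 were higher (median 0.48), with means of 10.05 to 10.17 against 9.50 to 9.59, and no mouse overlapped. Of 9 neutrophil markers 2 were higher and 2 lower, and the same counts held for 7 endothelial and 6 alveolar type 2 markers. Of 5 alveolar type 1 markers 2 were higher and 3 lower, and of 6 fibroblast markers 3 were higher and 2 lower. Of 4 club cell and 6 skeletal muscle markers 2 each were higher, and of 4 alveolar macrophage markers 2 were lower. At 7 h, 3 of 9 neutrophil and 1 of 9 monocyte and macrophage markers were lower in NOS2-/- mice. There 2 of 3 B cell markers were higher, and of 5 alveolar type 1 markers 1 was higher and 1 lower. The part of all these markers in the genotype differences of the 10 genes was not tested.

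**Figure D3:**
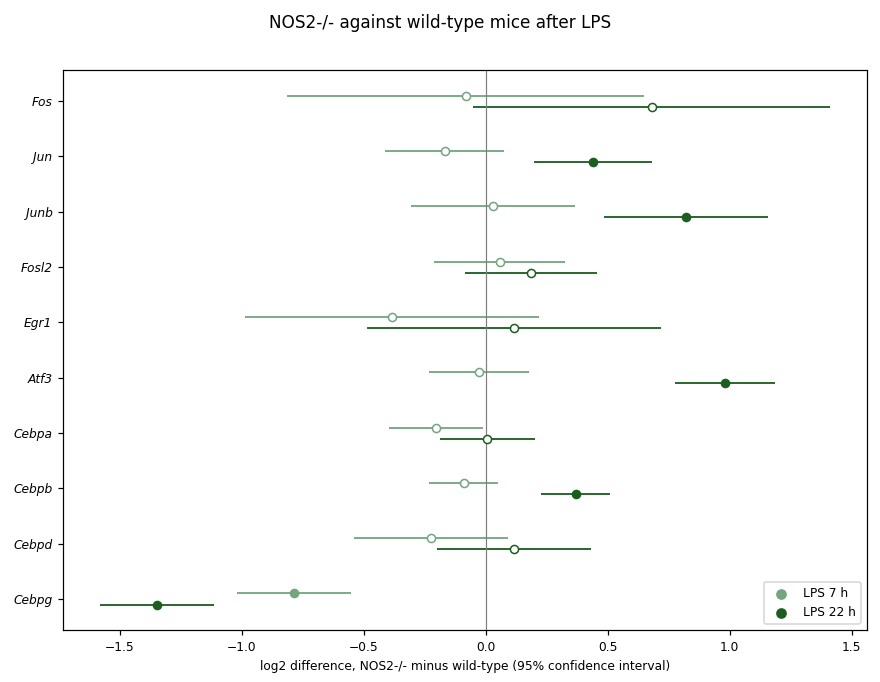
Difference between NOS2-/- and wild-type mice after LPS for the 10 genes. The x axis is the log2 signal of NOS2-/- minus wild-type mice, bars are 95% confidence intervals, and filled points passed an adjusted p of 0.05. At 7 h only Cebpg is filled, and at 22 h Atf3, Junb, Jun and Cebpb lie to the right of 0 and Cebpg lies to the left.

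Atf3 showed the widest separation upward. At 7 h the genotypes differed by -0.03, with an interval of -0.23 to 0.18. At 22 h the NOS2-/- mice were 1.97-fold higher (0.98 ± 0.10, adjusted p = 1.29e-05), and no mouse overlapped. Wild-type Atf3 fell by 1.28 from 7 h to 22 h (adjusted p = 9.55e-07), while the NOS2-/- change was -0.28 (adjusted p = 0.104, or 0.0312 without wild-type LPS 22 h replicate 2). The test of the difference between these changes gave 1.01 ± 0.14 (adjusted p = 0.00144), and that between the 22 h responses to LPS gave 0.98 ± 0.16 (adjusted p = 0.0027).

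Junb was 1.77-fold higher in NOS2-/- mice at 22 h (0.82 ± 0.16, adjusted p = 0.00233), with no overlap, and differed by 0.03 at 7 h (interval -0.31 to 0.37). The genotype difference in its change between the times was 0.79 and was not called (adjusted p = 0.0687), but passed the test without wild-type saline replicate 1 (adjusted p = 0.0302) or wild-type LPS 22 h replicate 3 (adjusted p = 0.0439). Jun was 1.36-fold higher at 22 h (0.44 ± 0.11, adjusted p = 0.0153). Its second probe set gave the same difference of 0.44 (adjusted p = 0.012). The call of the first was lost without replicate 2 (adjusted p = 0.0591) or replicate 3 (adjusted p = 0.0534) of the NOS2-/- LPS 22 h mice. In wild-type mice both Jun probe sets fell from 7 h to 22 h (-0.52 and -0.50), and in NOS2-/- mice they changed by 0.09 and -0.08.

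Cebpb was 1.29-fold higher in NOS2-/- mice at 22 h (0.37 ± 0.07, adjusted p = 0.00159) and its second probe set 1.77-fold (0.82 ± 0.12, adjusted p = 0.000344). Cebpb rose by 0.29 from 7 h to 22 h in NOS2-/- mice (adjusted p = 0.0149), against -0.17 in wild-type mice (adjusted p = 0.127), and the difference between these changes was 0.46 ± 0.09 (adjusted p = 0.0184). That difference lost its call without wild-type LPS 7 h replicate 2 or 3 or NOS2-/- LPS 22 h replicate 2 (adjusted p 0.0517 to 0.0586). The rise of 0.29 was lost without replicate 3 of the NOS2-/- LPS 7 h mice or without any 1 of the 3 NOS2-/- LPS 22 h mice (adjusted p 0.0511 to 0.0611). Cebpa and Cebpd did not pass the test between the genotypes, with intervals at 22 h of -0.19 to 0.20 and -0.20 to 0.43. Without wild-type LPS 22 h replicate 2, Cebpa was called lower in NOS2-/- mice at 7 h (-0.20, adjusted p = 0.0462). Fos was not called either (0.68 at 22 h, adjusted p = 0.211, or 0.0308 without wild-type saline replicate 1). Fosl2 differed by 0.19 at 22 h (adjusted p = 0.363), and by 0.36 without the array that stood apart (adjusted p = 0.00931). Egr1 had an interval of -0.49 to 0.72.

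Cebpg was the 1 member called lower in NOS2-/- mice. Wild-type mice had 11.09, 10.89, 10.98 and 11.03 after saline, 11.23, 11.31 and 11.13 at 7 h and 11.13, 10.73 and 10.98 at 22 h after LPS, with no change called. Without LPS 22 h replicate 2, the 0.22 rise at 7 h passed the test (adjusted p = 0.0378). The NOS2-/- saline mouse had 10.71, below all wild-type saline mice. NOS2-/- mice had 10.67, 10.30 and 10.33 at 7 h and 9.66, 9.61 and 9.53 at 22 h. They were 1.73-fold lower than wild-type mice at 7 h (-0.79 ± 0.11, adjusted p = 0.00574) and 2.55-fold lower at 22 h (-1.35 ± 0.11, adjusted p = 2.91e-06). Within NOS2-/- mice Cebpg fell from 7 h to 22 h (-0.83, adjusted p = 0.000479) and from saline to LPS at 22 h (-1.11, adjusted p = 6.64e-05). The LPS response at 22 h differed between genotypes by -1.06 ± 0.19 (adjusted p = 0.0041).

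The 3 Cebpg probe sets did not move alike. The one on the right of the plot by probe set, with a mean signal of 9.05 over all mice against 10.67 for the first, was also lower in NOS2-/- mice, with differences of -0.65 at 7 h (adjusted p = 0.0145) and -0.96 at 22 h (adjusted p = 5.44e-05). It rose with LPS in wild-type mice by 0.61 at 7 h and 0.40 at 22 h. The dimmest, with a mean of 8.18, did not pass the test between genotypes (-0.33 at 7 h, adjusted p = 0.104, and -0.23 at 22 h, adjusted p = 0.179). It rose in NOS2-/- mice over their saline mouse by 0.66 and 0.55. In wild-type mice it was also higher after LPS, with means of 8.04 after saline, 8.52 at 7 h and 8.31 at 22 h. Over the 17 arrays the first probe set correlated with them at r = 0.86 and 0.36. With the mean of the 3 in place of the first, the NOS2-/- change from saline at 22 h was -0.28 and not called (adjusted p = 0.163), and the genotype difference in the 22 h response was -0.49 (adjusted p = 0.124). Cebpg and Cebpa are neighbours on chromosome 7 (GRCm38.p6), at 35046422 to 35056566 and 35119293 to 35121928. Cebpa was not called between the genotypes at either time.

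**Figure D4:**
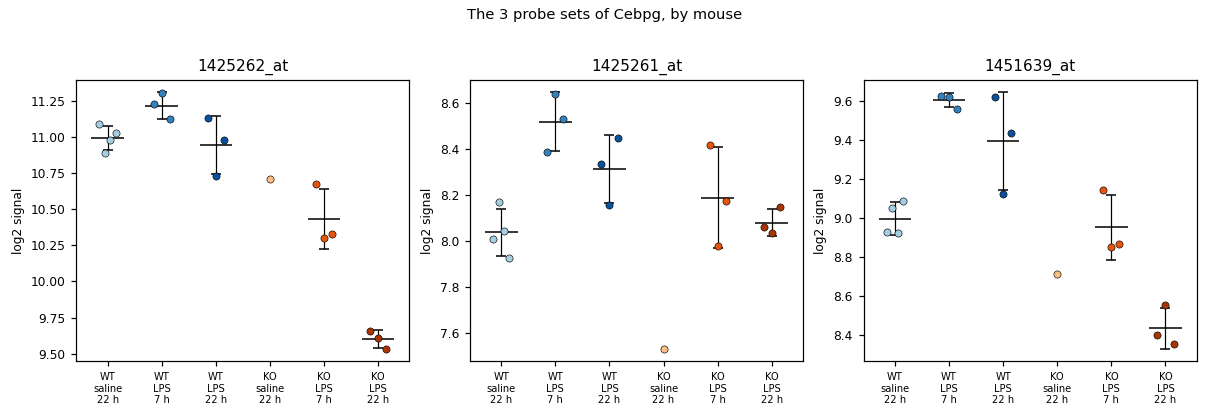
The 3 Cebpg probe sets in every mouse, with mean signals of 10.67, 8.18 and 9.05 over all mice from left to right. The y axes are log2 signal with their own ranges that do not start at 0, points are mice, and lines and bars are the mean ± SD of groups with 3 or 4 mice. In the left and right panels all NOS2-/- (KO) LPS mice at 22 h lie below all wild-type (WT) LPS mice. The same order holds in the middle panel with a narrow gap, at 8.04 to 8.15 in KO and 8.16 to 8.45 in WT mice at 22 h after LPS.

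Between 7 h and 22 h after LPS, 2 of the 10 genes were called in wild-type mice (Atf3 and Jun, both lower at 22 h), where 10.8% of all probe sets were called. In NOS2-/- mice 2 were called (Cebpb higher and Cebpg lower), against 7.81%. The genotype difference in the LPS response at 22 h was called for 2 genes (Atf3 and Cebpg), against 4.7% of all probe sets, and that in the change from 7 h to 22 h for 2 (Atf3 and Cebpb), against 3.04%. Without wild-type LPS 22 h replicate 2 the last 3 shares were 19.9%, 15.2% and 7.2%, with 5, 5 and 4 members called. The order of the group means was thus not the same for all members. Atf3 was highest at 7 h in both genotypes, at 10.53 and 10.51, whose mice overlapped, followed by NOS2-/- mice at 22 h (10.23) and wild-type mice at 22 h (9.25). Junb and Cebpb were highest in NOS2-/- mice at 22 h, with means of 11.79 and 13.21, and no mouse of another group reached the lowest value there.

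Across the 17 arrays, Cebpb followed Junb and Cebpd at r = 0.97 each and ran opposite to Cebpa at r = -0.93. These points share their groups, so that the correlations describe the common LPS pattern. Among all other genes, Cebpb was most like the neutrophil chemokine gene Cxcl2, the phosphatase gene Dusp16 and the cytokine signalling inhibitor gene Socs3 (r of 0.995, 0.993 and 0.993). Junb was most like Cd302, Rnf19b and Nfkbiz (0.990, 0.987 and 0.986), Atf3 like Isg20, Slc26a4 and Ccl17 (0.983, 0.981 and 0.980), and Cebpd like Fkbp5, Ifitm1 and Sphk1 (0.990, 0.989 and 0.987). Fos was most like the immediate-early genes Ier2, Dusp1 and Nr4a1 (0.916, 0.891 and 0.872). Jun was most like Ilrun, Lpar1 and Trim25 (0.949, 0.930 and 0.919), Fosl2 like Qtrt1, Klf3 and Tbrg4 (0.918, 0.912 and 0.911) and Cebpa like Myzap, Mid1ip1 and Egln1 (0.984, 0.983 and 0.982). Cebpg was most like Crk, B3galnt2 and Mkks (0.967, 0.962 and 0.954). Egr1 had no close match, its nearest being Fabp4, Hccs and Nr4a1 (0.717, 0.706 and 0.671).

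The other genes of these families and pathways were followed through lists, whose counts stand beside the shares of all probe sets called in the comparisons with saline (32.3% and 32.8% in wild-type and 22.5% and 27.6% in NOS2-/- mice at 7 h and 22 h). Of 14 measured genes among 15 other AP-1 and related bZIP genes, 8 rose and 1 fell in wild-type mice at both times, and 7 and 9 rose and none fell in NOS2-/- mice, with median log2 fold changes of 0.40, 0.41, 0.42 and 0.68. Batf2, an interferon-inducible factor, rose by 2.85 and 1.55 in wild-type and by 2.46 and 1.81 in NOS2-/- mice. Maff, a small MAF protein, rose by 2.01 and 1.66 and by 2.39 and 2.91. Batf rose by 1.30 and 1.12, Fosl1 by 0.68 and 1.12 and Mafk by 0.74 and 0.42 in wild-type mice. Between the genotypes, none of the 14 was called at 7 h, where 2.01% of all probe sets were called. At 22 h 3 were higher in NOS2-/- mice (Maff by 0.57, Mafk by 0.31 and Jund by 0.57, the last named after its value was seen), against 16.4% of all probe sets. Both shares depended on single arrays, as given above. The LPS response of Maff at 22 h differed between the genotypes by 1.25 (limma adjusted p = 0.000766). That value rests on the 1 NOS2-/- saline mouse, and the direct difference of Maff at 22 h was 0.57.

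**Figure D5:**
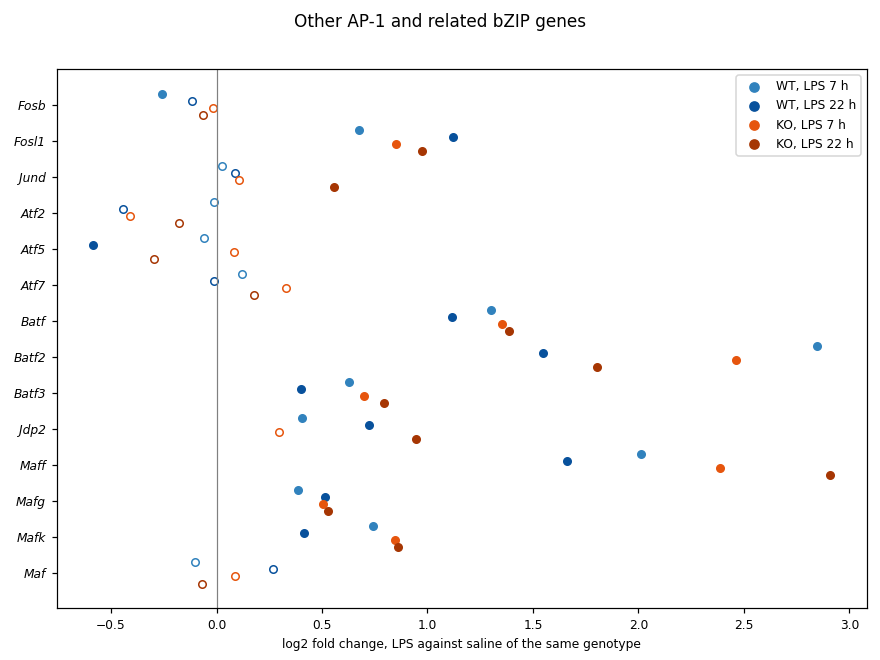
Other AP-1 and related bZIP genes after LPS in wild-type (WT) and NOS2-/- (KO) mice. The x axis is the log2 fold change against saline mice of the same genotype, each row is a gene and each colour a group, and filled points passed an adjusted p of 0.05 in limma. Batf2, Maff, Batf, Fosl1, Batf3, Mafg and Mafk are filled in all 4 comparisons, while Atf2, Atf7 and Maf are filled in none.

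Of 11 EGR relatives, their corepressors and serum response factors, 2 rose and 2 fell in wild-type mice at 7 h and 1 and 2 at 22 h, and 2 and 3 fell in NOS2-/- mice with none rising. Elk3, an ETS-domain partner of serum response factor known from endothelium, fell in both genotypes, with log2 fold changes of -2.50 and -2.13 in wild-type and -2.92 and -3.17 in NOS2-/- mice. In these lungs the mean of the endothelial markers was lower. Of 7 such markers 5 fell in each comparison with saline, and 1 rose in all but that of NOS2-/- mice at 7 h. Their part in the fall of Elk3 was not tested. Egr2 rose by 0.93 and 0.40 in wild-type mice and was lower in NOS2-/- mice at the same times (-0.62 and -0.41). Nab2, a corepressor of EGR proteins, fell in wild-type mice (-0.42 and -0.34), and Nab1 rose by 0.57 at 7 h.

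Of 14 other immediate-early genes, 8 rose and 2 fell in wild-type mice at 7 h and 7 and 2 at 22 h, with medians of 0.48 and 0.27. In NOS2-/- mice 5 and 6 rose and none fell, and 6 were higher than in wild-type mice at 22 h, against 16.4% of all probe sets called. Myc rose by 1.76 and 0.90 in wild-type mice, Zfp36, which encodes an RNA-binding protein that destabilises cytokine mRNA, by 1.37 and 0.83, Nr4a1 by 1.05 and 0.94, and Dusp1 by 0.85 and 0.93. Zfp36 was 0.82 higher in NOS2-/- mice at 22 h, and its change from 7 h to 22 h differed by 0.81 (adjusted p = 0.0375). Ccn2, a matrix-associated growth factor gene, fell in wild-type mice (-1.65 and -1.79) and had values of -0.21 and 0.44, not called, in NOS2-/- mice. The 22 h responses differed by 2.23 (limma adjusted p = 0.0042). The NOS2-/- values of Ccn2 and this difference rest on the 1 NOS2-/- saline mouse.

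Upstream of AP-1, of 15 measured genes among 18 MAP kinase genes, 6 rose and 4 fell in wild-type mice at each time, and 4 and 5 rose and 3 and 4 fell in NOS2-/- mice. Map3k8, the kinase TPL2 that links Toll-like receptors to ERK, rose by 2.27 and 1.83 in wild-type and by 2.46 and 2.24 in NOS2-/- mice. Mapk13 rose by 0.80 and 0.88 and Map2k1 by 0.76 and 0.47, while Mapk14 (-0.78 and -0.53) and Map3k5 (-0.52 and -0.88) fell in wild-type mice. Of 8 measured genes among 10 MAP kinase phosphatases, 3 rose at each time in both genotypes. They were Dusp1, Dusp2 and Dusp16. Dusp16 rose by 1.44 and 1.30 and Dusp2 by 1.40 and 0.91, whereas Dusp14 fell (-0.72 and -0.46), and Dusp6 fell by 0.58 at 7 h.

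Around the C/EBP proteins, 4 genes of a list of 6 relatives and Tribbles regulators were measured. Trib1 rose by 1.01 and 0.90 in wild-type and by 1.09 and 1.27 in NOS2-/- mice, and Trib2 fell (-0.98 and -1.79 in wild-type, -0.67 and -0.78 in NOS2-/- mice). Ddit3 rose by 0.37 and 0.31 in wild-type mice and was lower in NOS2-/- mice (-0.44 and -0.60), and Trib3 rose by 0.34 in wild-type mice at 22 h. Of 15 known C/EBP target genes, 10 rose and 2 fell in wild-type mice at 7 h, and 9 and 2 at 22 h, with medians of 1.40 and 0.90, and 9 and 10 rose and 3 fell at each time in NOS2-/- mice. Saa3, an acute-phase gene, rose by 6.40 and 6.49 in wild-type and by 6.23 and 6.15 in NOS2-/- mice. Il6 rose by 3.72 and 3.71 and by 4.11 and 5.24, and Lcn2 by 3.22 and 3.38 and by 3.26 and 3.35. Orm1, which encodes an acute-phase glycoprotein, rose by 3.09 and 4.59 in wild-type and by 2.55 and 3.30 in NOS2-/- mice and was lower in NOS2-/- than in wild-type mice at 22 h (-1.06), while Il6 was 1.47 higher. Adipoq, a fat cell gene, fell in wild-type mice (-0.79 and -2.69) and was 2.45 higher in NOS2-/- mice at 22 h. It is 1 of 2 measured genes among 4 adipose tissue markers, and the other, Fabp4, differed by 0.12 and was not called. Their mean was 8.42 to 8.73 in wild-type and 9.56 to 10.15 in NOS2-/- mice at 22 h after LPS, 9.28 to 10.32 in wild-type saline mice and 11.15 in the NOS2-/- saline mouse, and the part of adipose tissue in the Adipoq values was not tested. Other cell type markers belong to the same list. They are the neutrophil genes Camp, Ltf and Csf3r, the alveolar type 2 gene Sftpa1, the club cell gene Scgb1a1, and Adipoq and Fabp4. The mean of the neutrophil markers was higher in every LPS mouse than in every saline mouse. Those of the alveolar type 2 and club cell markers were lower in every LPS mouse than in every saline mouse. The part of these cell types in the list's counts was not tested.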

How the data were processed

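Lung RNA of 17 mice was hybridised to Affymetrix MOE430A arrays. The authors processed the arrays with the R package affy (background correction, normalization and expression values, with options not given in the sources used here), and the log2 values they deposited were used unchanged. Array medians lay between 8.46 and 8.55. The number of mice limits the precision. The p-values rest on the spread within the groups of these mice, to which the 1 NOS2-/- saline mouse adds nothing.

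Of 22690 probe sets, 64 controls were left out and 22626 tested. Symbols came from the annotation of the array, updated to GRCm38.p6 by gene ID. A linear model with a mean for each of the 6 groups was fitted to all arrays in limma 3.58.1 (R 4.3.3), with default empirical Bayes moderation and Benjamini-Hochberg adjustment over all probe sets tested. Known changes added to simulated data served to test the script.

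The 10 genes and all lists were chosen with earlier results of these data known. Text naming covered all 10 members with every probe set, up to 5 called genes per list with the largest wild-type change, and the 3 non-member genes most correlated with each member. A gene was represented by its probe set with the highest mean. A list was described by its counts and median. Alternatives were quantile normalization, subtraction of array medians, a fit of the compared groups only, a filter at the 40th percentile of signal, trended and robust moderation, array weights, a replicate block, the mean of all probe sets, wild-type saline controls for NOS2-/- mice, an adjusted p under 0.01, and leaving out each array in turn.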

Additional observations from a re-analysis of the deposited data

Results flagged for a closer look

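The response to LPS differed between the genotypes, by a test of the difference itself, in 4 results. The 22 h response of Atf3 was 0.98 higher (log2) in NOS2-/- than in wild-type mice, and that of Cebpg was -1.06, that is, lower. From 7 h to 22 h after LPS, the change of Atf3 was 1.01 higher and that of Cebpb 0.46 higher in NOS2-/- mice. The differences in the 22 h response rest on 1 NOS2-/- saline mouse. With the mean of its 3 probe sets in place of the brightest, the Cebpg difference in the 22 h response was -0.49 and not called (limma adjusted p = 0.124). The values of the differences in the change from 7 h to 22 h use no saline mouse, but the spread of the saline mice enters their tests. By Dixon's ratio of gap to range, at its 95% critical value, no gene of the 10 had an outlying mouse in the wild-type saline group. That test was applied to no other group. The highest ratio was 0.736, for the lowest Fos value.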

How the results depend on the processing

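No called value of a member turned its sign. Of 2500 values of single members under an alternative, 2401 stayed on their side of the threshold, 79 passed it newly and 20 no longer did. Of 39 calls, 35 were kept whichever array was left out, and the calls of Junb, Atf3, Cebpa and Cebpd were kept in every comparison that called them. With the groups compared alone the members called were 8 in place of 5 for NOS2-/- LPS 7 h against saline, 2 in place of 1 between the genotypes at 7 h, 3 in place of 5 at 22 h (Jun and Cebpb lost, adjusted p = 0.139 and 0.0674 by limma), 1 in place of 2 for wild-type 22 h against 7 h, and 5 in place of 2 for NOS2-/- 22 h against 7 h. With array weights the counts of these comparisons were 8 (NOS2-/- LPS 7 h), 3 (genotypes at 7 h) and 5 (NOS2-/- 22 h against 7 h), and there were 4 in place of 2 for the genotype difference in the 22 h response and 5 in place of 2 for that in the change from 7 h to 22 h. With wild-type saline controls they were 8 for NOS2-/- LPS 7 h and 5 for the 22 h response, which is then by construction the direct comparison of the genotypes at 22 h. Subtraction of array medians gave 4 and the 40th percentile filter 5 for the change from 7 h to 22 h, and an adjusted p under 0.01 gave 1 for that change and 1 for NOS2-/- 22 h against 7 h. Fosl2 in wild-type mice at 22 h lost its call with the groups compared alone (adjusted p = 0.0703) or with array weights (0.0728), and the Cebpb change difference with quantile normalization (0.33, adjusted p = 0.0786). With the mean of its 3 probe sets Cebpg lost its calls in NOS2-/- mice at 22 h (-0.28, adjusted p = 0.163) and in the 22 h response difference (-0.49, adjusted p = 0.124).

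Leaving out 1 array, the members called ranged from 6 to 9 and 6 to 6 for wild-type LPS at 7 h and 22 h, 5 to 7 and 7 to 9 for NOS2-/- LPS, 1 to 2 and 4 to 6 between the genotypes at 7 h and 22 h, 2 to 4 for wild-type 22 h against 7 h (4 without wild-type LPS 22 h replicate 1), 1 to 5 for NOS2-/- 22 h against 7 h (5 without wild-type LPS 22 h replicate 2, 1 when NOS2-/- LPS 7 h replicate 3 was left out, or any NOS2-/- LPS 22 h mouse), 2 to 5 for the genotype difference in the 22 h response (4 without wild-type saline replicate 1, 5 without wild-type LPS 22 h replicate 2) and 1 to 4 for that in the change from 7 h to 22 h (1 without wild-type LPS 7 h replicate 2 or 3 or NOS2-/- LPS 22 h replicate 2, 4 without wild-type LPS 22 h replicate 2 or 3). Between the genotypes at 7 h it was 2 without wild-type LPS 22 h replicate 2. The share of all probe sets called ranged in these fits from 0.102% to 26.9% and 10.3% to 26.6% between the genotypes at 7 h and 22 h, 6.41% to 18.1% and 3.92% to 19.9% for 22 h against 7 h in wild-type and NOS2-/- mice, and 3.09% to 15.2% and 1.07% to 7.2% for the differences in the response and in the change. The highest share was that without wild-type LPS 22 h replicate 2, or replicate 3 for wild-type 22 h against 7 h, and leaving out replicate 2 also took NOS2-/- LPS 7 h against saline from 22.5% to 38.1%.

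Replicate numbers did not pair the mice: of 30 same-numbered pairs 4 had deviations that correlated over 0.1 (r from -0.38 to 0.36). With a replicate block 38 of 39 calls were kept, and Jun in NOS2-/- mice at 22 h was lost (0.52, adjusted p = 0.0593). The NOS2-/- response rests on 1 saline mouse, and Fos and Egr1 had the widest intervals of the 10 genes in every comparison with saline.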
